A study of Mus musculus with 28 samples.

Results

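The 9 genes described here encode adhesion molecules that act between vessel wall and blood cells: Sele, Selp, Selplg, Icam1, Icam2, Itgal, Itgam, Itgb2 and Itga4. They were chosen by gene symbol and are 9 of the 25251 genes in the table. RNA had been sequenced from 3 populations of mouse marrow and bone, with 28 libraries in all. The endothelial cells (ECs, CD45-Ter119-CD31+) and the mesenchymal stromal cells (MSCs, CD45-Ter119-CD31-CD166-Sca1+) were sorted from bone lining cells, with 5 libraries per genotype each. The bone marrow mononuclear cells (MNCs) carry no marker gate in their labels and had 4 libraries per genotype. Their source is given as bone marrow MNCs but their cell type label is Bone Lining Cells, and the study's text also ties them to these cells, so central marrow and bone lining as their origin cannot be told apart here. Control mice were C57 BL6 with an intact receptor gene (Flt3+/+). The other mice carried an internal tandem duplication knocked into Flt3 on that strain (Flt3 ITD/ITD, homozygous in the study's methods). All mice were 8 to 10 wk old. The knock-in is in the germ line and is present in every cell, and the mice develop a myeloproliferative disease, so a direct action of the allele and an action of the disease cannot be told apart.

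Selectins are lectins that catch passing leukocytes and let them roll along the vessel wall. E-selectin (Sele) and P-selectin (Selp) are displayed by activated endothelium, and P-selectin is also stored in platelets. Their main leukocyte ligand is the mucin PSGL-1 (Selplg). Rolling cells are then arrested by integrins, which are pairs of an alpha and a beta chain. Itgal pairs with Itgb2 to form LFA-1, and Itgam pairs with Itgb2 to form Mac-1, and both bind ICAM-1 (Icam1). LFA-1 also binds ICAM-2 (Icam2). Itga4 belongs to VLA-4, which pairs with another beta chain and binds VCAM-1.

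In the GRCm38 build with the GENCODE M21 annotation, both selectin genes lie on the plus strand of chromosome 1, Sele from 164048234 to 164057677 and Selp from 164115264 to 164150026. Itgal and Itgam both lie on the plus strand of chromosome 7, from 127296260 to 127335138 and from 128062640 to 128118491. Icam1 lies on chromosome 9 from 21015985 to 21028817 and Icam2 on the minus strand of chromosome 11 from 106377656 to 106388075. RefSeq promoter sequences (GRCm38.p6) matched 5 of the 9 genes. The 250 bases before the start are printed for Sele and Icam1 as examples of vessel wall members, and for Itgam because it is the myeloid alpha chain. In Sele and Icam1 the capitals mark matches to GGNNNTTCC on either strand (GGAANNNCC on the other), the core letters bound by NF-kappaB, a factor of inflammatory signalling. In Itgam they mark GAGGAA or TTCCTC, letters preferred by the myeloid factor PU.1. These are matches of letters, not measured binding.
Sele: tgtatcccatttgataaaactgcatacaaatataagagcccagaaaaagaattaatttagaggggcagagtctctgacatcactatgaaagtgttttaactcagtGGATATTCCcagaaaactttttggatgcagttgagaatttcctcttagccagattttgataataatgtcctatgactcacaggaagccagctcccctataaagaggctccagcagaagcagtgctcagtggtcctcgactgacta
Icam1: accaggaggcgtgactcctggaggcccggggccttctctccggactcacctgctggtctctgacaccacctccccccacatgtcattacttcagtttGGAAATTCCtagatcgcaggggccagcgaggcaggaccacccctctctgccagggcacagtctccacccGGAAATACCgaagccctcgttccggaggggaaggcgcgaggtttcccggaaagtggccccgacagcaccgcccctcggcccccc
Itgam: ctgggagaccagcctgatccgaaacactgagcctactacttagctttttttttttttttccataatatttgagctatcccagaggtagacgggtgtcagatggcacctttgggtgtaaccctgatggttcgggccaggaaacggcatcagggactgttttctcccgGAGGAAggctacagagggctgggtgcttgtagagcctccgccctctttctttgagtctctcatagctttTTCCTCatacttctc
The first motif was found in 15.7% and the second in 23.3% of 32851 promoters of the same length. Sele held 1 match to the first motif, Icam1 held 2 and Itgam held 2 to the second. Sele also held 1 match to GAGGAA or TTCCTC, not marked here. Of the promoters not printed, that of Selp held 1 match to the first motif, 14 bases from the start. It held 0 to the second, and Itga4 held 0 to either.

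Library totals ranged from 6377013 to 33880743 counts in ECs, from 10674182 to 33714502 in MSCs and from 14260910 to 22149240 in MNCs. Summed levels of 12 endothelial marker genes were 1916 to 2804 RPKM (reads scaled by transcript length and library size) in ECs, 10 to 27.15 in MSCs and 3.02 to 12.57 in MNCs. Summed levels of 12 mesenchymal markers were 29290 to 33830 RPKM in MSCs and 3686 to 6375 RPKM in ECs. Most of the EC sum was Ly6a, the gene of Sca1, with a mean of 4759 RPKM in ECs and 2756 RPKM in MSCs. Dcn averaged 11.47 RPKM in ECs and 23920 RPKM in MSCs, Lum 2.442 and 2841 RPKM, and Col1a1 0.165 and 330.2 RPKM. Other markers of the list were present in both, with Lepr at 46.82 and 52.71 RPKM and Cxcl12 at 174.6 and 391.3 RPKM. By the calling rule given below, 9 of the 12 were lower in ECs and 0 higher. The library labelled Flt3 ITD/ITD EC replicate 2 stood apart, with 29510 RPKM of summed neutrophil markers against 22.18 to 1372 in the other EC libraries. Flt3 ITD/ITD MSC replicate 5 had 6098 RPKM of these markers against 18.44 to 497.1 in the other MSC libraries. Results that rest on these libraries are given with and without them. In bulk samples fewer cells of a type and less RNA per cell cannot be told apart.

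**Figure D1:**
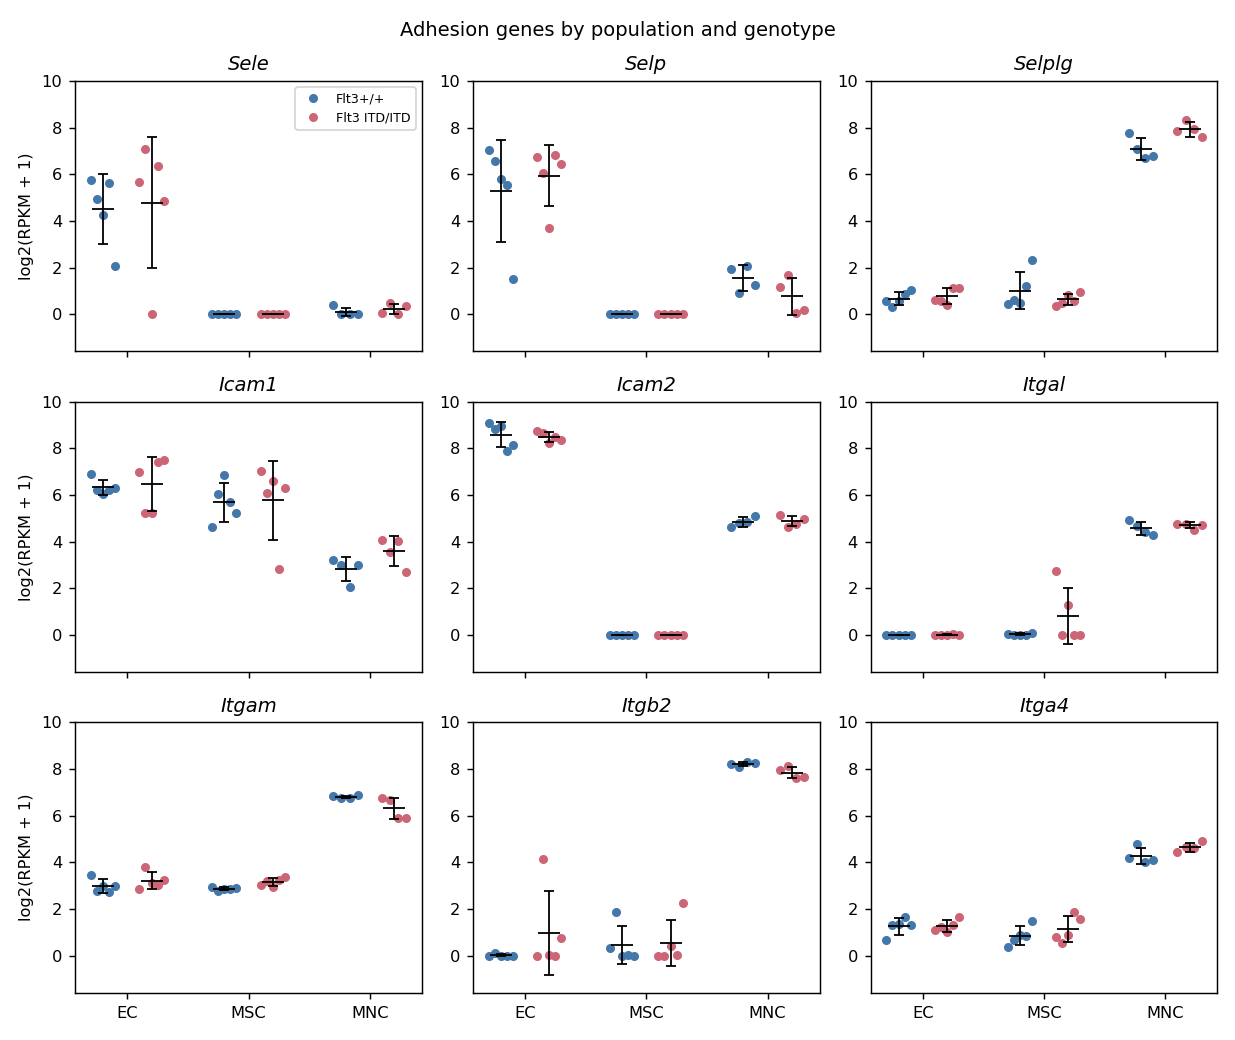
Level of each gene as log2(RPKM + 1) on the vertical axis, by population and genotype on the horizontal axis. Each point is 1 library and bars are the mean and SD. Sele, Selp and Icam2 stand high in ECs, the 4 integrin chains and the ligand Selplg stand high in MNCs, and Icam1 is high in both ECs and MSCs.

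Each gene's order of levels across the populations was the first question. A gene was called when its adjusted p was below 0.1 and its mean RPKM differed by at least 1 on the log2 scale. Between ECs and MSCs 4 members were called, 3 higher in ECs and 1 lower, where 32.9% of the 16897 genes tested were called, 16.3% higher and 16.6% lower. All 9 were called between ECs and MNCs, 4 higher in ECs and 5 lower, against 45% of all genes, 23.1% higher and 22% lower. All 9 were also called between MSCs and MNCs, 1 higher in MSCs and 8 lower, against 44.3% of all genes, 22.2% higher and 22% lower. Adjusted p-values given as edgeR's are from its quasi-likelihood test with Benjamini-Hochberg adjustment over all genes tested. The filter on low counts ran over all 28 libraries, so a gene low in both populations compared could be tested through the remaining one. This was so for Itgal between ECs and MSCs and for Sele between MSCs and MNCs. Itgb2 also had too few counts for a test within ECs or within MSCs. Cell number per library (100 in ECs and MSCs, 200 in MNCs) differs with the population and cannot be told apart from it in comparisons with MNCs.

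The selectins were high in ECs and at or near 0 in MSCs. Sele stood at 52.53, 29.53, 18.07, 47.97 and 3.21 RPKM in the Flt3+/+ ECs. In the Flt3 ITD/ITD ECs it stood at 49.35, 134.55, 0, 79.94 and 27.69 RPKM. Over all 10 MSC libraries Sele had 1 count. Relative to library totals the EC level was 32800 times that of MSCs, with a 95% counting interval of 5880 to 1290000. This interval covers counting error only. In MNCs Sele ranged from 0 to 0.38 RPKM, with 4 of 8 libraries at 0. The fitted log2 fold change of Sele was 13.60 ± 1.58 (SE) for ECs against MSCs, with an edgeR adjusted p of 7.4e-07, and 8.43 ± 1.35 for ECs against MNCs, with an edgeR adjusted p of 2.7e-05. The lone EC library at 0, Flt3 ITD/ITD replicate 3, overlapped the other populations.

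Selp stood at 130.17, 93.37, 54.98, 45.76 and 1.85 RPKM in Flt3+/+ ECs. It stood at 105.31, 65.93, 11.83, 111.36 and 86.22 RPKM in Flt3 ITD/ITD ECs. No read of Selp was counted in any of the 10 MSC libraries. Against a floor of 3 counts per MSC library, the mean EC level of 70.68 RPKM was at least 1260-fold higher. MNCs held 0.04 to 3.23 RPKM of Selp, which was 47.3-fold below ECs on the mean (log2 fold change 5.53 ± 0.88, edgeR adjusted p = 5.8e-05). The megakaryocyte marker sum in MNCs was 12.73 to 30.03 RPKM in Flt3+/+ and 3.66 to 10.7 RPKM in Flt3 ITD/ITD libraries. The part of that lineage in the MNC level of Selp was not tested. Exons of Selp overlap antisense genes, and without strand their reads cannot be told apart.

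Both selectins varied widely between EC libraries. The coefficient of variation was 90.2% for Sele and 60.1% for Selp, against medians of 45.7% and 39.3% among EC genes of similar level. Across the 10 EC libraries, log2(RPKM + 1) of Sele and Selp gave a Pearson r of 0.774 (permutation p = 0.018, adjusted over 6 pairs 0.108) and a Spearman rho of 0.697 (permutation p = 0.0301, adjusted 0.118). Without the 2 libraries farthest from the median of Sele, Flt3+/+ replicate 5 and Flt3 ITD/ITD replicate 3, r was 0.169, so the relation did not hold without both of them. Without any 1 library r was 0.76 to 0.83. After the genotype means were removed r was 0.779. The other 5 pairs of Sele, Selp, Icam1 and Icam2 had r from 0.11 to 0.578 and adjusted permutation p-values from 0.231 to 0.753.

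**Figure D2:**
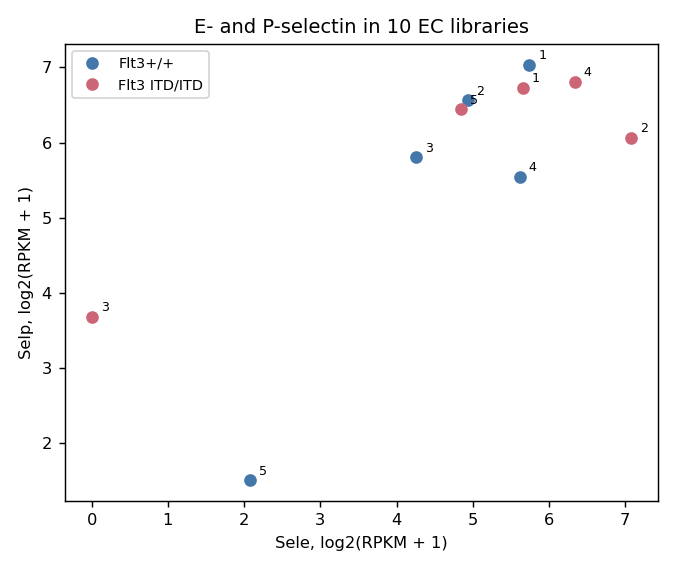
Sele on the horizontal and Selp on the vertical axis, both as log2(RPKM + 1), in the 10 EC libraries, with replicate numbers beside the points. The 2 libraries lowest in Sele, at 0 and 3.21 RPKM, are also the lowest in Selp, at 11.83 and 1.85 RPKM.

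The ICAMs differed in how far they were restricted to vessels. Icam2 stood at 541.35, 458.84, 503.47, 238.82 and 280.94 RPKM in Flt3+/+ ECs. It stood at 422.56, 400.07, 299.73, 354.84 and 328.05 RPKM in Flt3 ITD/ITD ECs. It was the most abundant member in ECs by mean RPKM and had no count in any MSC library, so the EC mean of 382.9 RPKM was at least 3340-fold above the MSC floor. MNCs held 23.44 to 34.11 RPKM of Icam2, 13.5-fold below the EC mean and without overlap (log2 fold change 3.62 ± 0.23, edgeR adjusted p = 6.4e-10).

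Icam1 was shared by both sorted populations. Flt3+/+ ECs held 118.43, 72.64, 65.6, 72.47 and 77.97 RPKM, and Flt3 ITD/ITD ECs held 127.3, 35.94, 36.92, 168.21 and 180.38 RPKM. Flt3+/+ MSCs held 23.77, 64.88, 113.62, 50.64 and 36.75 RPKM, and Flt3 ITD/ITD MSCs held 128.04, 67.18, 95.74, 6.05 and 78.21 RPKM. The ranges overlapped, and the log2 fold change of ECs against MSCs was 0.27 ± 0.39 (edgeR adjusted p = 0.64). MNCs held 3.18 to 15.7 RPKM of Icam1, with a mean 10.5-fold below ECs and 7.27-fold below MSCs. Both differences passed the test (edgeR adjusted p = 2.1e-06 and 5.4e-06). Icam1 overlaps an antisense gene on the other strand.

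The leukocyte-side members were high in MNCs. Selplg, the selectin ligand, averaged 194 RPKM in MNCs and 0.678 RPKM in ECs, a ratio of 286 without overlap (log2 fold change of ECs against MNCs -7.57 ± 0.45, edgeR adjusted p = 1.0e-12). It averaged 0.94 RPKM in MSCs. Itgb2, the shared beta chain, was the most abundant member in MNCs, at 264.2 RPKM on the mean with a range of 194.96 to 315.33. Itgal ranged from 18.4 to 29.14 RPKM in MNCs, and ECs had 3 counts of it in all. Relative to library totals the MNC level was 8470 times that of ECs, with a 95% counting interval of 2900 to 41100. Itga4 averaged 21.5 RPKM in MNCs, 14.8-fold above ECs and 19.6-fold above MSCs (edgeR adjusted p = 2.2e-09 and 6.2e-10). Its exons overlap Cerkl on the opposite strand.

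Itgb2 was at or near 0 counts in most sorted libraries. In Flt3+/+ ECs it had 0, 4, 0, 0 and 0 counts, and in Flt3 ITD/ITD ECs 0, 1404, 1, 0 and 50. The library with 1404 counts is the one with 29510 RPKM of neutrophil markers. In Flt3+/+ MSCs Itgb2 had 8, 244, 0, 1 and 0 counts, and in Flt3 ITD/ITD MSCs 0, 0, 30, 1 and 110. For ECs against MSCs the fitted log2 fold change was -1.61 ± 1.38 (edgeR adjusted p = 0.41), although the mean RPKM was 2.49-fold higher in ECs. Without Flt3 ITD/ITD EC replicate 2 it was -3.70 (edgeR adjusted p = 0.030). Without Flt3+/+ MSC replicate 2 it was 0.30 (edgeR adjusted p = 0.95). With the replicate number as a block it was -5.42 and met the calling rule (edgeR adjusted p = 0.099). That rule uses only the size of the RPKM ratio, which here pointed the other way (log2 ratio 1.314), so no direction is read from this call.

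Itgal was called higher in MSCs than in ECs, but on few libraries. It had too few counts to be tested within ECs or within MSCs. It entered this comparison through its counts in MNCs, 18692 in all, so the call is a description. MSC counts were 1, 0, 0, 1 and 13 in Flt3+/+ and 856, 0, 249, 0 and 0 in Flt3 ITD/ITD. The log2 fold change of ECs against MSCs was -5.65 ± 1.29 (edgeR adjusted p = 0.0013). In Flt3+/+ libraries alone it was -2.91 (edgeR adjusted p = 0.11). With the replicate number as a block it was -3.64 and was no longer called (edgeR adjusted p = 1.0). The library with 856 Itgal counts had 0 counts of both Itgb2 and the pan-leukocyte gene Ptprc, and 4 of 13 pan-leukocyte markers above 3 counts. The library with 249 had 30 counts of Itgb2, 0 of Ptprc and 11 of the 13 markers above 3 counts. That with 13 had 0 counts of Itgb2, 17 of Ptprc and all 13 markers above 3 counts. The part of leukocytes in these Itgal values was not tested.

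Itgam, in contrast to its partner chain, was present in all 20 sorted libraries. Flt3+/+ ECs held 9.94, 5.84, 7.0, 5.55 and 6.96 RPKM and Flt3 ITD/ITD ECs held 6.2, 12.95, 7.54, 7.15 and 8.58 RPKM. Flt3+/+ MSCs held 6.6, 5.81, 6.34, 6.31 and 6.4 RPKM and Flt3 ITD/ITD MSCs held 7.06, 8.07, 6.58, 8.6 and 9.27 RPKM. The coefficient of variation was 16.1% in MSCs, where 0.277% of 4697 genes of similar level had a lower one. Itgb2 had 0 counts in 10 of those 20 libraries. The EC library highest in Itgam, Flt3 ITD/ITD replicate 2 at 12.95 RPKM, was also highest in Itgb2 at 16.81 RPKM, and the MSC library highest in Itgam, Flt3 ITD/ITD replicate 5 at 9.27 RPKM, was also highest in Itgb2 at 3.82 RPKM. MNCs held 59.17 to 116.59 RPKM, 12.4-fold above ECs and 13.6-fold above MSCs on the mean (edgeR adjusted p = 2.6e-14 and 3.8e-14). Exons of Itgam are shared with Gm49368 on the same strand, which is not in the table, so reads of the pair cannot be told apart here.

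**Figure D3:**
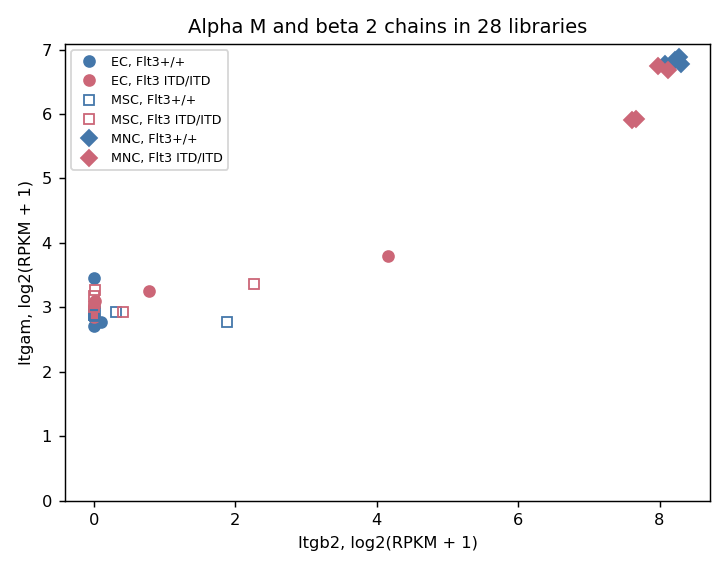
Itgb2 on the horizontal and Itgam on the vertical axis, both as log2(RPKM + 1), in the 28 libraries, with populations by symbol and genotypes by colour. EC and MSC libraries hold 5.55 to 12.95 RPKM of Itgam at Itgb2 levels from 0 to 16.81 RPKM, and MNC libraries are high in both.

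The effect of Flt3 ITD/ITD within each population was the second question. No member was called in ECs (0 of 7 tested, with 0.0081% of 12351 genes called), in MSCs (0 of 4, with 0.0295% of 13574) or in MNCs (0 of 8, with 0.0144% of 13926). DESeq2 and edgeR's exact test also called 0 members in each population. At an unadjusted edgeR p below 0.05 there were 0 members in ECs (4.99% of all genes tested), 0 in MSCs (4.24%) and 3 in MNCs (10.4%). Members not tested had too few counts in that population. Exact two-sided permutation tests on RPKM were computed for all 27 pairs of member and population, and their p-values are given unadjusted. The smallest p they allow is 0.00794 with 5 libraries against 5 and 0.0286 with 4 against 4.

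In ECs the vessel wall members overlapped between genotypes. Sele averaged 30.26 ± 20.56 RPKM (SD, n = 5) in Flt3+/+ and 58.31 ± 51.72 RPKM (SD, n = 5) in Flt3 ITD/ITD, with an exact permutation p of 0.325. Without Flt3 ITD/ITD replicate 2 the second mean was 39.24 RPKM (exact permutation p = 0.635). Selp averaged 65.23 ± 48.76 and 76.13 ± 40.1 RPKM (SD, n = 5 each, exact permutation p = 0.706). Icam1 averaged 81.42 ± 21.15 and 109.8 ± 69.76 RPKM (SD, n = 5 each, exact permutation p = 0.405). Without Flt3 ITD/ITD replicate 2, the lowest in Icam1, its mutant mean was 128.2 RPKM (exact permutation p = 0.167). Icam2 averaged 404.7 ± 136.2 and 361.1 ± 50.48 RPKM (SD, n = 5 each, exact permutation p = 0.516). The standard errors of the log2 fold changes ranged from 0.25 for Icam2 to 1.26 for Sele.

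In MSCs, Itgam was the member with the smallest exact p. It averaged 6.292 ± 0.2922 RPKM in Flt3+/+ and 7.916 ± 1.1 RPKM in Flt3 ITD/ITD (SD, n = 5 each, exact permutation p = 0.0159), and 4 of 5 mutant libraries lay above every control. In the fit across all genes its log2 fold change was 0.38 ± 0.24 (edgeR adjusted p = 0.999). Without Flt3 ITD/ITD replicate 5 the mutant mean was 7.578 RPKM (exact permutation p = 0.0159). Icam1 averaged 57.93 ± 34.71 and 75.04 ± 44.91 RPKM (SD, n = 5 each, exact permutation p = 0.524).

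**Figure D4:**
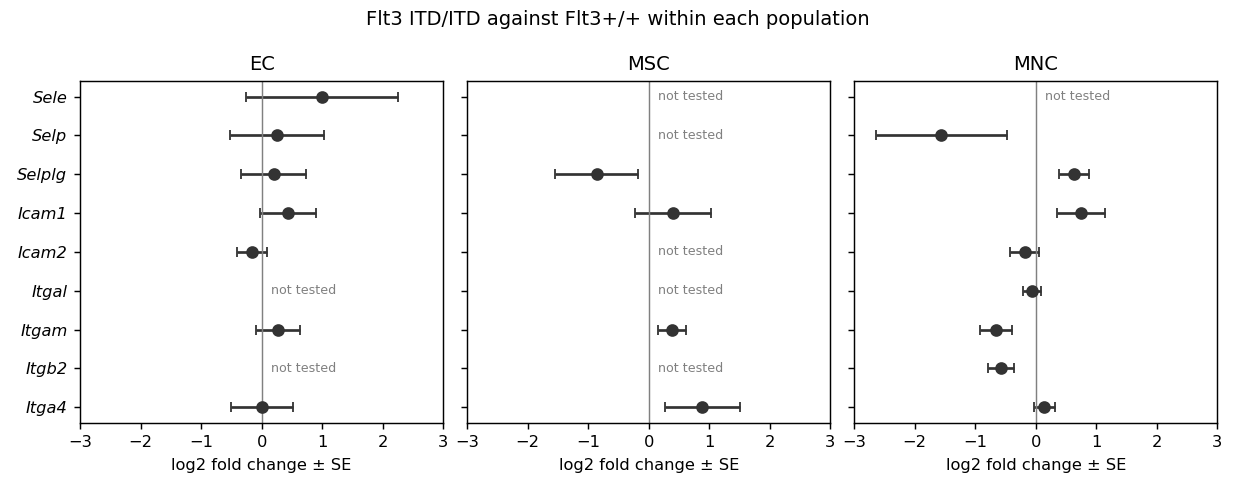
Log2 fold change of Flt3 ITD/ITD against Flt3+/+ on the horizontal axis for each gene in each population, with its standard error. Members with too few counts are marked as not tested, and none of the tested members passed the adjusted threshold.

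In MNCs, the Mac-1 chains were lower and the selectin ligand higher in the mutant on the mean, without passing the adjusted threshold. Icam1 was also higher, at 6.39 ± 2.237 and 11.89 ± 4.775 RPKM (SD, n = 4 each, exact permutation p = 0.114, log2 fold change 0.746 ± 0.394). Selp was lower, at 2.085 ± 1.118 and 0.9025 ± 1.02 RPKM (SD, n = 4 each, exact permutation p = 0.171, log2 fold change -1.562 ± 1.081). Itgam stood at 113.12, 109.06, 108.99 and 116.59 RPKM in Flt3+/+ and at 106.36, 101.32, 59.17 and 59.33 RPKM in Flt3 ITD/ITD MNCs. The groups did not overlap (exact permutation p = 0.0286, the smallest possible), as was so for 0.989% of 12036 genes in that direction. The log2 fold change was -0.66 ± 0.26 (edgeR adjusted p = 0.44). Itgb2 stood at 297.55, 269.14, 315.33 and 307.55 RPKM in Flt3+/+ and at 250.39, 276.38, 194.96 and 202.49 RPKM in Flt3 ITD/ITD MNCs. Its log2 fold change was -0.58 ± 0.22 (edgeR adjusted p = 0.42). Replicates 3 and 4 of the mutant were lowest in both chains. These libraries held 42730 and 58120 RPKM of summed neutrophil markers, against 157000 to 205300 in the other 6 MNC libraries, and the part of neutrophil content in the result was not tested.

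**Figure D5:**
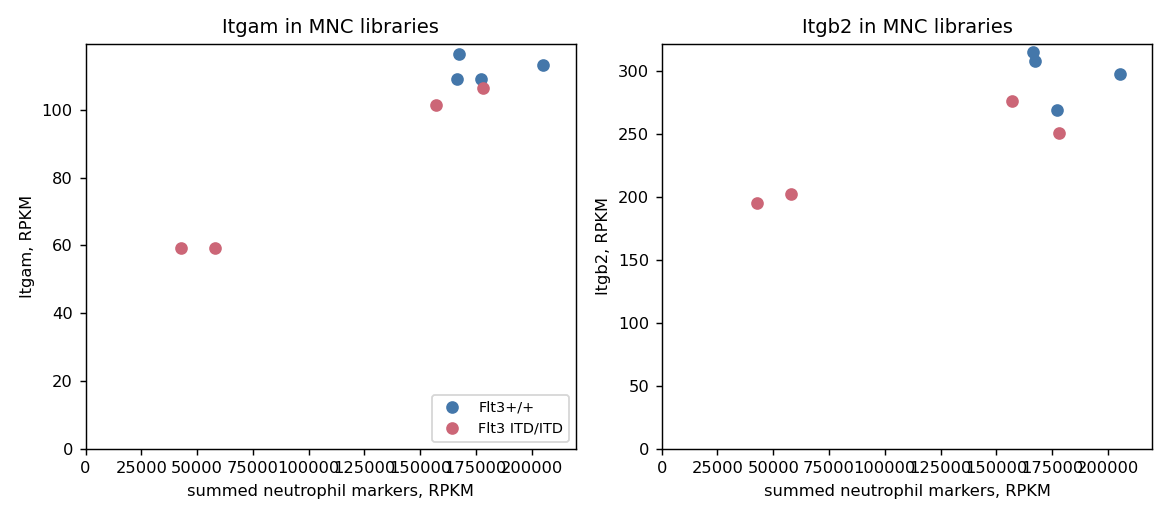
Itgam (left) and Itgb2 (right) in RPKM on the vertical axes against the summed level of 11 neutrophil markers in RPKM on the horizontal axes, in the 8 MNC libraries. The 2 mutant libraries with the lowest marker sums, 42730 and 58120 RPKM, are lowest in both chains.

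Selplg stood at 215.23, 133.87, 103.19 and 110.87 RPKM in Flt3+/+ and at 231.52, 322.95, 243.29 and 190.68 RPKM in Flt3 ITD/ITD MNCs. Its log2 fold change was 0.63 ± 0.25 (edgeR adjusted p = 0.44, exact permutation p on RPKM = 0.0571), and 3 of 4 mutant libraries lay above every control. Summed monocyte markers averaged 2787 RPKM in Flt3+/+ and 4324 RPKM in Flt3 ITD/ITD MNCs (exact permutation p = 0.0857), and their part in the level of Selplg was not tested. Itgal averaged 23.05 ± 4.822 and 25.05 ± 2.137 RPKM (SD, n = 4 each, exact permutation p = 0.457). Itga4 averaged 18.82 ± 5.461 and 24.18 ± 3.46 RPKM (SD, n = 4 each, exact permutation p = 0.143). The fitted log2 fold changes were -0.07 ± 0.15 for Itgal and 0.137 ± 0.175 for Itga4 (edgeR adjusted p = 0.91 and 0.82). For each member tested in MNCs the log2 ratio of mean RPKM lay above the fitted value. It had the other sign for Itgal (0.12) and for Icam2 (0.045, with a fitted value of -0.182). The exact tests in MNCs used RPKM.

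The balance of the alpha chains that share Itgb2 was compared within MNC libraries. Itgam made up 79.5%, 81.6%, 84.4% and 86.4% of the summed RPKM of Itgal and Itgam in Flt3+/+ MNCs. It made up 80.1%, 79.4%, 73.0% and 69.9% in Flt3 ITD/ITD MNCs. The groups overlapped, and the difference was -7.39 percentage points (exact permutation p = 0.0571). The sum of both alpha chains was 45.57% ± 3.915 of Itgb2 in Flt3+/+ and 45.68% ± 5.314 in Flt3 ITD/ITD (SD, n = 4 each, exact permutation p = 1.0).

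The difference between genotype effects was tested directly. No member passed between ECs and MSCs (0.379% of 16897 genes did), between ECs and MNCs (0.0118%) or between MSCs and MNCs (0.00592%). At an unadjusted edgeR p below 0.05 there was 1 member in the first comparison (Itgb2, with 10.6% of all genes), 2 in the second (Itgam and Itgb2, 8.23%) and 3 in the third (Selplg, Itgal and Itgam, 5.94%). Itgb2 had too few counts for a genotype test within ECs or within MSCs. It entered these tests by the filter over all 28 libraries, which include the MNCs where it is high. The log2 difference of Itgb2 was 7.39 ± 2.81 between ECs and MSCs and 8.32 ± 2.95 between ECs and MNCs (edgeR adjusted p = 0.29 and 0.43). Without Flt3 ITD/ITD EC replicate 2, the library with 1404 counts of Itgb2, these were 3.21 ± 2.51 and 4.13 ± 2.58 (edgeR unadjusted p = 0.21 and 0.12). Without Flt3+/+ MSC replicate 2, with 244 counts, the first was 3.73 ± 3.01 (edgeR unadjusted p = 0.23). Between MSCs and MNCs the log2 difference of Selplg was -1.51 ± 0.72 (edgeR adjusted p = 0.83). It was -0.77 ± 0.63 without Flt3+/+ MSC replicate 5 and -1.71 ± 0.73 without Flt3+/+ MSC replicate 2. Itgal, not tested for genotype within MSCs, had 6.23 ± 1.97 (edgeR adjusted p = 0.48). Its value was 4.22 ± 1.76 without Flt3 ITD/ITD MSC replicate 1 and 8.25 ± 2.20 without Flt3+/+ MSC replicate 5. Itgam differed between ECs and MNCs by a log2 value of 0.92 ± 0.34 (edgeR adjusted p = 0.45) and between MSCs and MNCs by 1.04 ± 0.34 (edgeR adjusted p = 0.52). DESeq2 called Itgam in the last comparison. The share of all genes that DESeq2 called there is not given here, so this call is not read as a result about Itgam. Selp and Icam2 had no count in MSCs and give no interpretable value there.

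Of 59 other genes of leukocyte adhesion, 58 were in the table and 55 were tested between populations. Of all genes tested, 16.3% were called higher in ECs than in MSCs and 16.6% lower. Against MNCs the shares were 23.1% higher and 22% lower for ECs, and 22.2% higher and 22% lower for MSCs. Between ECs and MSCs 18 were called higher in ECs and 11 lower, and the largest ratios in ECs were those of Vwf, the platelet-binding factor of endothelium (57.28 against 0.001 RPKM), of the sialomucin Podxl (75.16 against 0.004 RPKM) and of VE-cadherin, Cdh5 (212.8 against 0.041 RPKM). Among those higher in MSCs were Rassf5 and Apbb1ip, which act in integrin activation, at 5.887 and 10.64 RPKM. Between ECs and MNCs 17 were higher in ECs, led by Podxl, Fermt2 and Esam, and 25 were lower, among them Fgr. Between MSCs and MNCs 15 were higher in MSCs, led by Fermt2, Chst2 and Jam3, and 29 were lower, led by Fut7, Vwf and Fgr. Fut7, which builds selectin ligands, averaged 13.36 RPKM in MNCs and had no count in MSCs.

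Within populations, none of these genes was called between genotypes by edgeR (39 tested in the EC, 37 in the MSC and 51 in the MNC libraries), and 1, 2 and 11 of them had an unadjusted p below 0.05, which 4.99%, 4.24% and 10.4% of all genes tested had. The smallest p in ECs was that of Cdh5 (log2 fold change -0.34 ± 0.11, edgeR adjusted p = 0.93), followed by Itga2b and Itga6. In MSCs Glg1 had a log2 fold change of -0.98 ± 0.37 and Vcam1, the ligand of VLA-4, one of 1.29 ± 0.53 (edgeR adjusted p = 0.999 for both), followed by Apbb1ip. In MNCs St3gal6 had -1.45 ± 0.48, Pecam1 0.74 ± 0.26 and Cd34 1.30 ± 0.46 (edgeR adjusted p = 0.42 for each). Between ECs and MSCs the difference in genotype effect passed the test for 1 gene of the list, Fermt3, an activator of leukocyte integrins (log2 difference 13.22 ± 2.81, edgeR adjusted p = 0.080), as it did for 0.379% of all genes. Fermt3 had too few counts for a genotype test within ECs or within MSCs. It passed the filter over all libraries through its counts in MNCs, 29412 in all. Fermt3 had 0 counts in each Flt3+/+ EC library and 2, 153, 4, 1 and 2 in Flt3 ITD/ITD ECs. It had 0, 2, 0, 5 and 372 counts in Flt3+/+ MSCs and 1, 2, 2, 0 and 0 in Flt3 ITD/ITD MSCs, so 1 library in each population held nearly all of its counts. It did not pass without Flt3 ITD/ITD EC replicate 2 (10.05 ± 2.69, edgeR adjusted p = 0.14) or without Flt3+/+ MSC replicate 5 (8.20 ± 2.17, edgeR adjusted p = 0.15).

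The genes most like each member in log2(RPKM + 1) across the 28 libraries, of 13727 compared, are a description, since the 3 populations alone separate the values. For Sele they were Gm5795, EF651816 and Selp, with r of 0.956, 0.947 and 0.933. For Selp they were EF651816, Gm10409 and 2610042L04Rik (r from 0.95 to 0.956). For Icam2 they were Gimap6, Gm14085 and Cd93 (r from 0.982 to 0.991), and for Icam1 Slc38a2, Nr4a2 and Abca1 (r from 0.903 to 0.921). For Itgam they were Fcgr4, Mrgpra2b and Ncf1, each with r = 0.991, and for Itgb2 1810033B17Rik, Cybb and Cd177 (r from 0.989 to 0.993). For Itgal they were Amica1, Hk1os and Lpxn (r from 0.978 to 0.986). Those of Selplg included Pld4 and Myo1g (r of 0.995 and 0.994), and those of Itga4 included AK172267 and Pyhin1 (r of 0.976 and 0.975).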

How the data were processed

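cDNA had been made from 100 sorted ECs or MSCs, or 200 MNCs, with 15 amplification cycles, and sequenced as single 51-base reads. The authors aligned reads to mm10 transcripts with Bowtie, discarded reads without a unique place and quantified genes with RSEM. The authors deposited these read counts per gene as whole numbers, not normalized. The authors also deposited RPKM for the same genes, printed to 2 decimals. Library strand is not given in the sources used here.

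Libraries were grouped by their labels. Counts were tested in R 4.3.3 with the quasi-likelihood test of edgeR 4.0.16 (TMM, filterByExpr, no covariates). Populations and differences between genotype effects were tested with all 28 libraries, and genotypes within 1 population. Calls needed an adjusted p below 0.1 and, outside tests of differences between genotype effects, mean RPKM that differed by 1 or more on the log2 scale. SEs are the log2 fold change over the root of F. RPKM were compared by exact two-sided permutation tests and correlations by 100000 resamples (Python 3.11.15, numpy 2.4.6). DESeq2 1.42.0 and the other alternatives are described with their effects. Statistics across genes were tested on simulated data.

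All 9 members are named. Of the other adhesion genes, up to 3 called genes per direction with the largest ratio, or per genotype comparison the 3 with the smallest p, are named, and per member the 3 genes with the highest r among those with a mean of at least 1 RPKM. Some genes that this rule names are not reported here. Members and lists were chosen with earlier results of these data known. Replicates are separate mice. Same-numbered libraries were not paired. Their deviations correlated weakly across genes, with r from -0.073 to 0.062 between genotypes and from -0.055 to 0.027 between populations of 1 genotype (26 pairs). Whether same-numbered libraries of different populations came from 1 mouse is not given in the sources used here.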

Additional observations from a re-analysis of the deposited data

Results flagged for a closer look

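Dixon's criterion was applied to 46 groups of a member and a population of 1 genotype. In 10 of them a library's gap to its nearest neighbour was large for the group's range. The criterion flags about 5% of groups by chance if values are normally distributed, which groups with few counts are not. In some flagged groups the other libraries had no count, so the gap equals the range at any level. The 10 groups are therefore not read as an excess over chance.

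Itgb2 was flagged in 4 groups. Flt3 ITD/ITD EC replicate 2 held 16.81 RPKM against 0 to 0.71 in the others, and Flt3+/+ EC replicate 2 held 0.07 RPKM (4 counts) against 0. Flt3+/+ MSC replicate 2 held 2.67 RPKM against 0 to 0.24, and Flt3 ITD/ITD MSC replicate 5 held 3.82 RPKM against 0 to 0.33. Summed neutrophil markers were 29510 RPKM in the first of these and 6098 RPKM in the last, and 33.23 RPKM in Flt3+/+ MSC replicate 2. The part of these cells in the Itgb2 values was not tested.

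Itgal was flagged in Flt3 ITD/ITD MSC replicate 1 at 5.65 RPKM against 0 to 1.4, in Flt3+/+ MSC replicate 5 at 0.07 RPKM against 0 to 0.02, and in Flt3 ITD/ITD MNC replicate 3 at 21.89 RPKM against 25.6 to 26.36. Selplg in Flt3+/+ MSC replicate 5 was 3.99 RPKM against 0.34 to 1.34, and the same library had 240.3 RPKM of pan-leukocyte markers against 35.13 to 100.3 in the other Flt3+/+ MSCs. Icam1 in Flt3+/+ EC replicate 1 was 118.43 RPKM against 65.6 to 77.97. Sele in Flt3+/+ MNC replicate 1 was 0.3 RPKM (17 counts) against 0.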

How the results depend on the processing

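The counts of members called between populations stayed within 1.5 times, and those between genotypes at 0, under each alternative run, with 1 exception: DESeq2 called 1 member, Itgam, for the difference in genotype effect between MSCs and MNCs. The share of all genes that DESeq2 called for this difference is not given here. Without the 2 libraries highest in neutrophil markers the counts between populations were 4, 9 and 9. Leaving out 1 library at a time gave 4 to 5 members for ECs against MSCs and 8 to 9 for MSCs against MNCs, where Sele lost its call without Flt3+/+ MNC replicate 1 (log2 fold change -2.51). The Itgam share moved between -8.91 and -5.48 percentage points, and fell below an exact permutation p of 0.05 without Flt3 ITD/ITD replicate 1. The correlation of Sele and Icam1 in ECs ranged from -0.04 to 0.74 and that of Icam1 and Icam2 from -0.04 to 0.22. Counts of all genes called between genotypes by edgeR, DESeq2 and the exact test were 1, 362 and 16 in ECs, 4, 193 and 20 in MSCs, and 2, 322 and 148 in MNCs.

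Some log2 values changed sign. For the genotype effect in ECs, Itga4 was 0.00 with DESeq2 and with its size factors, and ranged from -0.20 to 0.15 without 1 library. Selplg ranged from -0.07 (with -0.03 without Flt3+/+ replicate 2) to 0.51 and Selp from -0.06 to 0.66. Itgal in MNCs ranged from -0.13 to 0.00. For ECs against MSCs, Itgb2 ranged from -3.70 to 0.30, and in Flt3 ITD/ITD libraries alone Itgb2 was 2.13, Selplg 0.14 and Itga4 -0.13. Itga4 in the genotype effect in ECs was -0.17 without Flt3 ITD/ITD replicate 5. The cause was not tested.

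Same-numbered libraries of both genotypes correlated from -0.073 to 0.062 in their deviations. In MSCs these r were all positive, and each Flt3+/+ library but replicate 1 correlated best with its own number in the mutant. In ECs replicates 1 and 2 did so, and in MNCs replicates 2 and 4. In 3 of 26 pairs across populations the first library correlated best with its own number. With the replicate block 4, 9 and 8 members were called between populations and 0 between genotypes. Itgal lost and Itgb2 gained its call for ECs against MSCs (-3.64 and -5.42). For Itgb2 the fitted value and the ratio of mean RPKM had opposite signs.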
